A study of Mus musculus with 4 samples.

Results

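Cyp3a11 and C730007P19Rik, the older symbol of Sult2a2, were 2 liver genes of drug and steroid metabolism with higher RNA levels in Stk40 KO than in WT fetal livers at E14.5. Each had 1 probe set under its own single symbol among those that the authors listed in a table as changed 2-fold. The values below come from these 2 of the 45101 probe sets on the array, and from 2 of the 1345 genes with a single symbol in that table. Probe sets outside the table have no name here, so whether others on the array read these genes is unknown. Both genes were chosen by their intensity ratio between these same arrays, since a gene has a name here only where that table lists it. Their levels are therefore given as a description, with no test. The embryos were of C57BL/6J background and came from matings of heterozygotes. Each genotype had 2 Affymetrix arrays, and each array carried total RNA pooled from 6 livers of that genotype. The knockout is a conventional deletion that all cells of the embryo carry, and the sources used here give no sex for the pooled embryos.

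Cyp3a11 is a cytochrome P450 of the endoplasmic reticulum of hepatocytes that oxidizes drugs, steroids and bile acids, and in adult mouse liver it is a classical target of the xenobiotic receptors PXR (Nr1i2) and CAR (Nr1i3). Sult2a2 belongs to the cytosolic hydroxysteroid sulfotransferases, which transfer sulfate from the donor PAPS to steroids and bile acids and so make them water-soluble. Oxidation by P450 enzymes is called phase I and conjugation, such as sulfation, phase II of drug metabolism. At mid-gestation the liver is filled with erythroid cells, hepatoblasts are a minority, and many enzymes of drug metabolism reach adult levels only around or after birth.

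The values are linear intensities in arbitrary units, as deposited, and had not been scaled between arrays. The Stk40 KO arrays were brighter, as their medians of 37.5 and 39.3 exceeded the 29.9 and 33.9 of the WT arrays. Over the 12773 probe sets whose mean lay above the noise level in a genotype, the median difference was 0.18 on the log2 scale as deposited and -0.04 after scaling that made the 75th percentile of positive values equal on all arrays, with lower values raised to the noise level and 12532 probe sets left. As noise level served 143 intensity units, a bound under which 95% of the negative values lie in size, and 24.1% to 28.5% of the probe sets on an array exceeded it. The probe set named for Stk40 itself read 59.9 and 52.2 in WT and -98.9 and -111 in Stk40 KO, all under the noise level. Of 12 hepatocyte markers the table names only Cps1 and Hp, and of 11 erythroid markers it names 0, so the labelled tissue could be checked against few of its defining genes.

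Cyp3a11 was well above the noise level in Stk40 KO fetal livers and at it in WT, and its arrays separated by genotype. Its named probe set (1416809_at) had an intensity of 148 and 140 on WT replicates 1 and 2 and of 654 and 585 on Stk40 KO replicates 1 and 2. The lower Stk40 KO array was 3.95 times the higher WT array, so the genotypes did not overlap. The same order held for 46.2% of the probe sets above the noise level (16.4% with equal 75th percentiles). Choosing the gene by its ratio on these arrays also largely fixed that they lay apart. The WT values lie at the noise level, 1 of the 2 just above it, whereas both Stk40 KO values lie well above. The means were 144 ± 5.34 (SD, n = 2 arrays) in WT and 620 ± 48.7 in Stk40 KO, a ratio of 4.30 whose WT side is no better than background. With equal 75th percentiles the arrays had 177 and 140 in WT and 603 and 546 in Stk40 KO, a ratio of 3.63. The scaling lowered the ratio, and the arrays stayed apart by genotype. Among all 45037 probe sets other than controls, the level of Cyp3a11 stood at the 74.5th percentile in WT and at the 90.4th in Stk40 KO.

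C730007P19Rik (Sult2a2) lay under the noise level in WT and well above it in Stk40 KO. Its named probe set (1419528_at) read 26.5 and 27.5 in WT and 515 and 426 in Stk40 KO. Both WT values lie far under the noise level, close to the middle of all probe sets (47.4th percentile), and both Stk40 KO values lie above it (87.5th percentile). The means were 27.0 ± 0.707 in WT and 470 ± 62.5 in Stk40 KO, which is at least 3.30-fold higher when the WT level is taken as the noise level. With equal 75th percentiles the arrays had 31.7 and 27.4 in WT and 474 and 397 in Stk40 KO, at least 3.06-fold higher. In bulk RNA of whole livers, more cells that express a gene and more RNA per cell cannot be told apart.

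**Figure D1:**
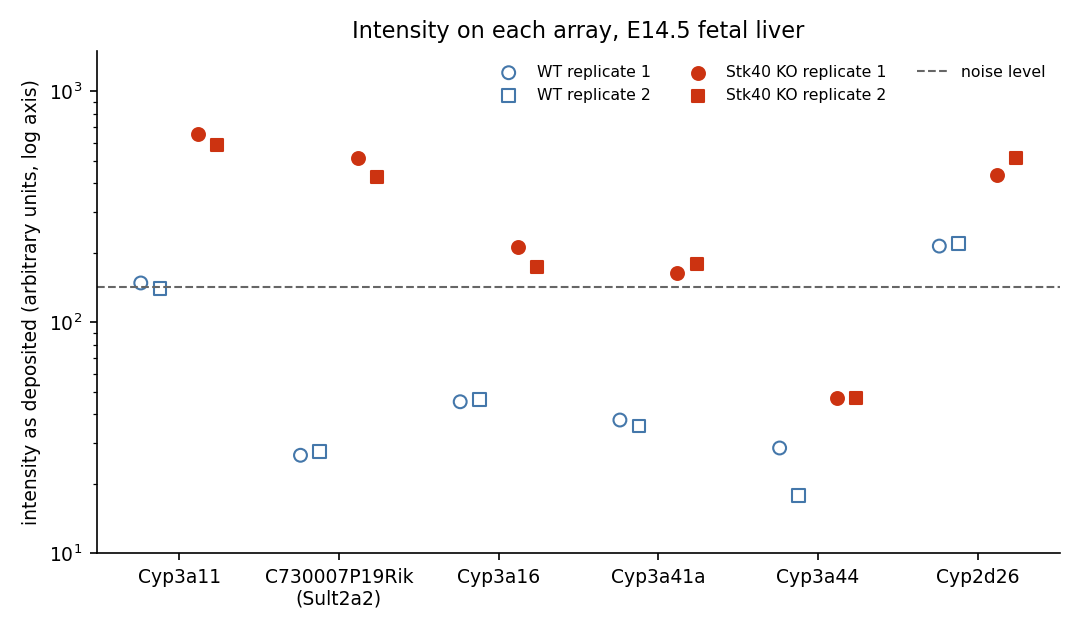
Intensity as deposited (arbitrary units, log axis) on each of the 4 arrays for Cyp3a11, C730007P19Rik (Sult2a2), the other 3 named Cyp3a genes and Cyp2d26, with the noise level as a dashed line. Each point is 1 array with RNA of 6 pooled livers, and the Stk40 KO arrays of Cyp3a11 lie at 654 and 585 against 148 and 140 in WT (all 6 genes were named for a 2-fold call, up or down, on these same arrays).

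By the fold rule of the methods (ratio of genotype means at least 2), both genes count as up, and a gene was named only if it was called up or down. Of the 32791 probe sets that the rule can judge, 3.79% are up as deposited (2.48% with equal 75th percentiles). By the same rule 1.56% are down as deposited and 2.2% with equal 75th percentiles. A lack of overlap by itself was common on these arrays. Both Stk40 KO arrays lay above both WT arrays for 46.2% of the probe sets above the noise level as deposited and for 16.4% with equal 75th percentiles. The Cyp genes just inside the fold threshold were Cyp3a44, Cyp1b1 and Cyp8b1, and since all their values lie under the noise level they are given as levels only. Probe sets just outside it have no name here.

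The 2 Stk40 KO arrays differed by 0.16 on the log2 scale for Cyp3a11 and by 0.27 for C730007P19Rik, against a median of 0.09 over the 12311 probe sets above the noise level on both. A larger difference was found in 25.0% of these probe sets for Cyp3a11 and in 6.79% for C730007P19Rik, so both genes varied more between the knockout pools than the median probe set. Both genes were higher on Stk40 KO replicate 1, which holds for 37.5% of these probe sets as deposited and for 32.9% with equal 75th percentiles. The neutrophil markers went the other way between the same arrays: of 8, the table names 4 (Ngp, Camp, Lcn2 and Ltf), whose summed intensity was 1712 and 1765 in WT and 4138 and 5820 in Stk40 KO replicates 1 and 2. The hepatocyte markers Cps1 and Hp, summed, had 311 and 388 in WT and 1802 and 2525 in Stk40 KO, also with the higher value on replicate 2. Lyz2, the 1 named of 6 macrophage markers, had 781 and 930 in WT and 1818 and 1854 in Stk40 KO. Of 3 intestinal markers 2 are named: Fabp2 had 207 and 230 in WT and 109 and 84.6 in Stk40 KO, the opposite order, and Vil1 lay under the noise level with 5.09 and 13.5 against 13.5 and 24.7. All these markers were named for their 2-fold change as well, and the unnamed ones have no value here. Their part in the levels of Cyp3a11 and C730007P19Rik was not tested.

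The Cyp3a genes lie side by side in a cluster on mouse chromosome 5. By a single symbol, the table names 4 of the 8 protein-coding genes of the cluster. In order along the chromosome these are Cyp3a57, Cyp3a16, Cyp3a41b, Cyp3a41a, Cyp3a44, Cyp3a11, Cyp3a25 and Cyp3a59, and the named ones, Cyp3a16, Cyp3a41a, Cyp3a44 and Cyp3a11, fall within 5 consecutive genes. Cyp3a16 is known as a fetal and neonatal form in mouse liver, and Cyp3a41a and Cyp3a44 as forms that adult female livers express more strongly. Cyp3a16 read 45.3 and 46.4 in WT and 211 and 173 in Stk40 KO, at least 1.35-fold higher against the noise level. Cyp3a41a had 37.7 and 35.5 in WT and 163 and 179 in Stk40 KO, at least 1.20-fold higher. Cyp3a44 had 28.5 and 17.8 in WT and 46.8 and 47.0 in Stk40 KO, all under the noise level, so no fold is given. In all 4 genes the Stk40 KO arrays lay above the WT arrays in both scalings. Their choice by the fold rule, up or down, largely fixed that the genotypes lay apart. The same order held for 46.2% (16.4% with equal 75th percentiles) of all probe sets above the noise level. Cyp3a16, like Cyp3a11, was higher on Stk40 KO replicate 1, whereas Cyp3a41a was higher on replicate 2. The coding sequences of these paralogs are closely related. The probe sequences were not analysed here, so how far a probe set also reads transcripts of a neighbouring Cyp3a gene was not tested. The Sult2a genes form a like cluster of 8 protein-coding genes on chromosome 7, of which the table names 1, Sult2a2, under its older symbol.

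**Figure D2:**
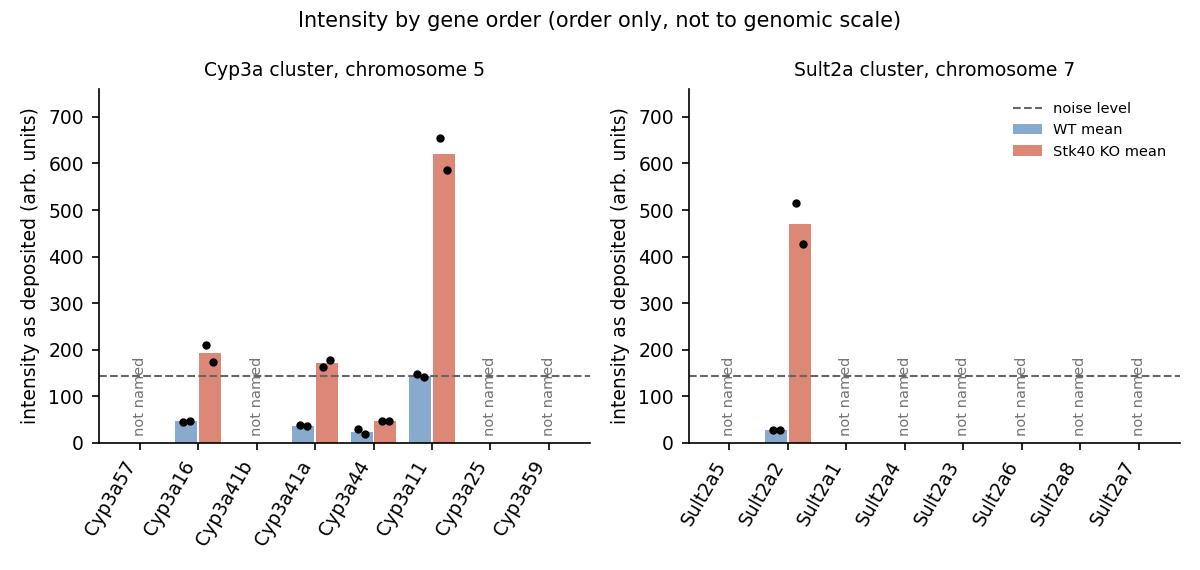
Mean intensity as deposited (arbitrary units, bars) with the 2 arrays of each genotype (points) for the protein-coding genes of the Cyp3a and Sult2a clusters in their order along the chromosome (not to scale), and the noise level as a dashed line. Cyp3a11 and Sult2a2 have Stk40 KO means of 620 and 470, Cyp3a16 and Cyp3a41a lie just above the noise level in Stk40 KO (levels of different probe sets are not comparable, and genes marked as not named have no value here).

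The windows before the start sites of the Cyp3a genes were compared as sequence outside the coding part. The 250 bases before the start of the 4 named genes are given from RefSeq (GRCm38.p6), 5′ to 3′ in the direction of transcription. They are shown as a description of sequence, and their part in the levels was not tested. Capitals mark matches of the motifs searched.
Cyp3a11 (GRCm38.p6, chr5:145879855-145880104, minus strand): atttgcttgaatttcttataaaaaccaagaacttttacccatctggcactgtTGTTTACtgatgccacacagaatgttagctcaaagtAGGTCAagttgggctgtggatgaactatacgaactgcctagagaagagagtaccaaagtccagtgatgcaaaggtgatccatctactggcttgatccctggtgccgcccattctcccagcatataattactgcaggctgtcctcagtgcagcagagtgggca
Cyp3a16 (GRCm38.p6, chr5:145469724-145469973, minus strand): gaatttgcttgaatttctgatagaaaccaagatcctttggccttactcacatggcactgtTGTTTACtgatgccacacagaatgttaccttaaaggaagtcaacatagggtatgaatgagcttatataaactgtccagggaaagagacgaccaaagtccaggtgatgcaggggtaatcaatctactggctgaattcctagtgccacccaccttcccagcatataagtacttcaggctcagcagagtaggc
Cyp3a41a (GRCm38.p6, chr5:145720137-145720386, minus strand): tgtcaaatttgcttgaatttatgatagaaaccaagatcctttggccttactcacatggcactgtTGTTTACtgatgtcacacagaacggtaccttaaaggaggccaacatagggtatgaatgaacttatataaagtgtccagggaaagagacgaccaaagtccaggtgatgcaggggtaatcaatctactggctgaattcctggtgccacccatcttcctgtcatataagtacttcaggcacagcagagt
Cyp3a44 (GRCm38.p6, chr5:145805875-145806124, minus strand): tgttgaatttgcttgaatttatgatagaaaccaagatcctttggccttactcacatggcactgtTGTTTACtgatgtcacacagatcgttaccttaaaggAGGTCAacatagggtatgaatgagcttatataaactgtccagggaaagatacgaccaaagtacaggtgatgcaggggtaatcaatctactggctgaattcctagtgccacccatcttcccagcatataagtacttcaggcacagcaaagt

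In global alignments of these windows, Cyp3a16, Cyp3a41a and Cyp3a44 were 90.9% to 94.4% identical to each other. The window of Cyp3a41b, which the table does not name by a single symbol, was as close to them. It was 91.3% identical to that of Cyp3a16, 99.6% to that of Cyp3a41a and 94.8% to that of Cyp3a44. The Cyp3a11 window was 76.6% identical to that of Cyp3a16, 72.1% to those of Cyp3a41a and Cyp3a44 and 72.45% to that of Cyp3a41b. Against Cyp3a25, its other direct neighbour, it reached 53.4%, little more than the 46.3% that the same alignment gave against the unrelated Cyp2d26. Of the letters searched on both strands, TGTTTAC, a binding motif of FOXA factors, which open chromatin in liver cells, was found in all 4 windows and in that of Cyp3a41b, 180 to 198 bases before the start. It was found in 3.17% of all 32851 promoter windows of the same length. AGGTCA, the half-site of nuclear receptors such as PXR, CAR and HNF4A, was found in the windows of Cyp3a11 and Cyp3a44, 162 to 157 and 150 to 145 bases before the start, and in 14.0% of all windows. Those of Cyp3a16 and Cyp3a41a do not hold these letters. Cyp3a25, Cyp3a57 and Cyp3a59, which the table does not name by a single symbol, lack TGTTTAC in this window. They hold AGGTCA on each strand and TGTTCT, the half-site of the glucocorticoid receptor (16.1% of all windows). TTGCNNAA, a C/EBP motif (9.56%), was not found in the windows of the 4 named genes, and no matches of different motifs overlapped. A match of letters is a description and shows no binding.

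**Figure D3:**
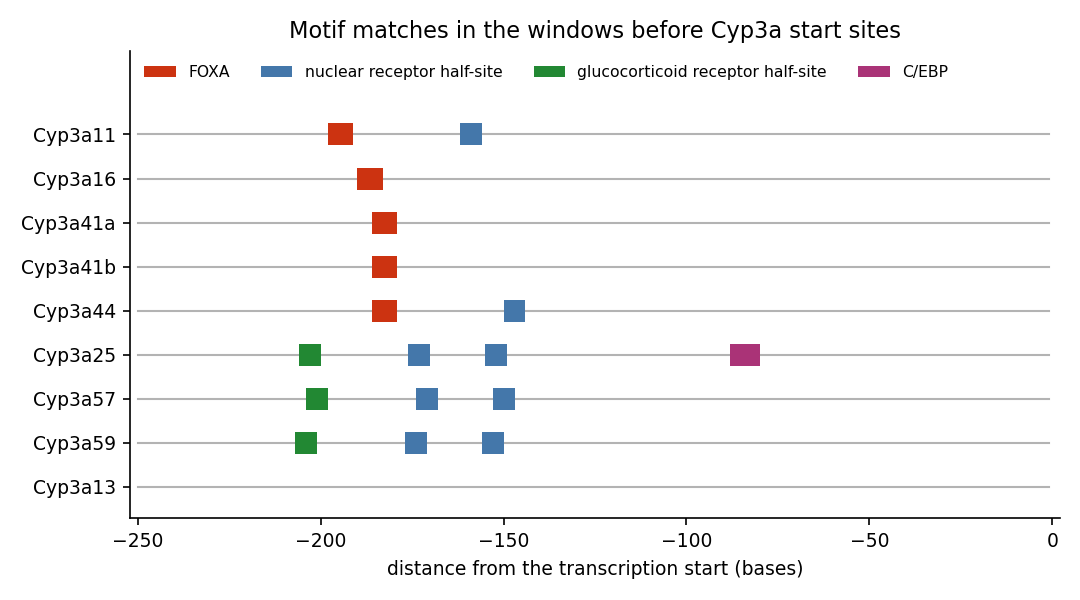
Positions of motif matches in the 250 bases before the start of 9 Cyp3a genes (x axis, distance from the transcription start in bases). The FOXA letters lie 180 to 198 bases before the start in Cyp3a11, Cyp3a16, Cyp3a41a, Cyp3a41b and Cyp3a44 and are not found in this window in Cyp3a25, Cyp3a57, Cyp3a59 and Cyp3a13.

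By a single symbol, the table names 14 of 99 protein-coding Cyp genes. Of these, 12 were up and 2 down as deposited by the fold rule, which calls 3.79% of all judged probe sets up and 1.56% down. With equal 75th percentiles 6 were up and 2 down, beside 2.48% and 2.2% of all probe sets. With values raised to the noise level as deposited 2 were up, a setting for which the share of all probe sets was not computed. Since a gene is named only if it was called, these counts say nothing about Cyp genes as a group. The 6 were the Cyp3a genes Cyp3a11, Cyp3a16 and Cyp3a41a and the dimmer Cyp2c50, Cyp2d9 and Cyp2d13. Besides Cyp3a11, Cyp2d26 was the only Cyp gene whose WT mean exceeded the noise level, and the only one above it on all 4 arrays. This member of the Cyp2d family, expressed in mouse liver, had 214 and 220 in WT and 436 and 515 in Stk40 KO. Its ratio was 2.19 as deposited and 1.86 with equal 75th percentiles. The genotypes did not overlap. The same order held for 46.2% of the probe sets above the noise level as deposited and for 16.4% with equal 75th percentiles. Unlike Cyp3a11, Cyp2d26 was higher on Stk40 KO replicate 2. Of the probe sets above the noise level on both Stk40 KO arrays, only 37.5% were higher on replicate 1 as deposited (32.9% with equal 75th percentiles).

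The remaining 10 Cyp genes stayed below the noise level throughout and are given as levels only. Cyp39a1, an oxysterol hydroxylase of bile acid synthesis, had 40.5 and 45.3 in WT and 105 and 89.2 in Stk40 KO. Cyp8b1, which makes cholic acid by sterol 12-alpha hydroxylation, had 16.0 and 21.0 against 37.6 and 39.0. Both are enzymes of the hepatocyte, and both have a name here only through their 2-fold change. Cyp2d9 had 13.6 and 17.1 in WT and 43.7 and 57.2 in Stk40 KO, and Cyp1b1, a P450 of mesenchymal and other extrahepatic cells, had 17.3 and 22.1 against 30.2 and 49.9. The values of Cyp2c29, Cyp2c50 and Cyp2d13 lay between 0.636 and 31.7. The 2 genes that count as down did so on values near 0: Cyp11a1, the side-chain cleavage enzyme of steroid hormone synthesis, had 2.55 and 4.27 in WT and -2.27 and -0.455 in Stk40 KO, and Cyp2c65, known from the intestine, had 8.64 and 1.36 against -1 and -3.91. None of these reaches the noise level.

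**Figure D4:**
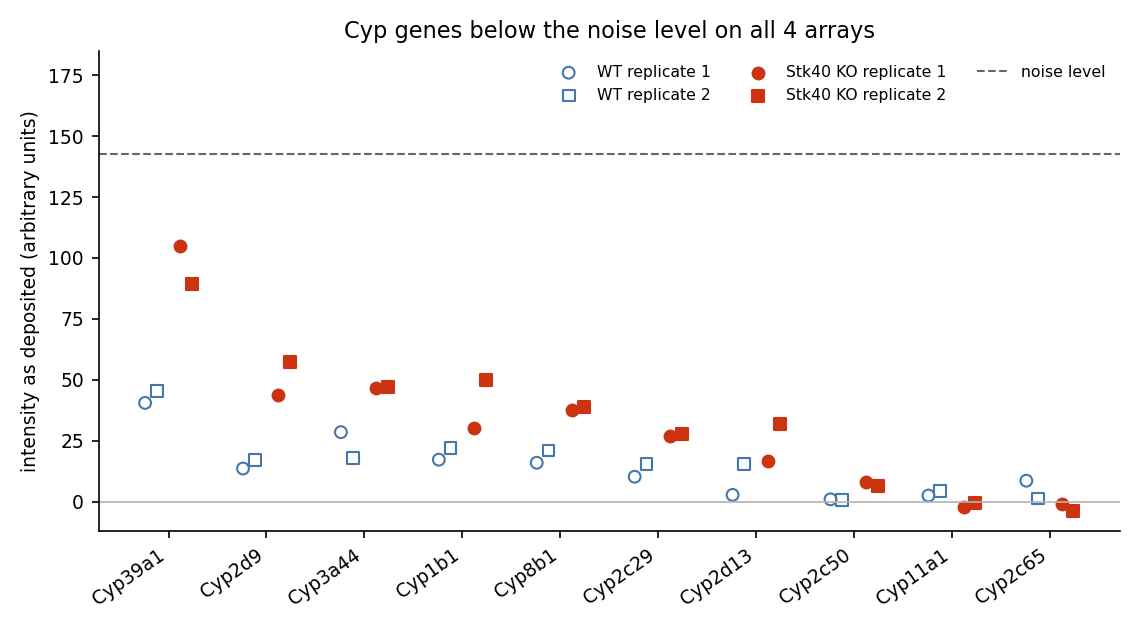
Intensity as deposited (arbitrary units, linear axis) on each array for the 10 Cyp genes of the table that lie under the noise level (dashed line) on all 4 arrays. The values run from -3.91 for Cyp2c65 to 105 for Cyp39a1, and each gene was named for a 2-fold call, up or down, on these same arrays.

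Other genes of drug metabolism that the table names were under the noise level on all arrays except Aldh4a1. They too were named because the rule called them, beside which the rule calls 3.79% (2.48% with equal 75th percentiles) of all probe sets up and 1.56% (2.2%) down. Of 19 transcription factors and nuclear receptors of these genes it names 1. Onecut1, a factor of hepatoblasts and bile ducts, had 17.0 and 27.1 in WT and 7.55 and 8.91 in Stk40 KO, all under the noise level. Neither PXR nor CAR is named, so the receptors known to drive Cyp3a11 in adult liver have no value here. Of 63 phase I genes other than Cyp it names 5, of which 4 were up and 1 down as deposited (2 up and 1 down with equal 75th percentiles). Por, the reductase that passes electrons to every microsomal P450, had 17.5 and 47.5 in WT and 75.5 and 68.7 in Stk40 KO. Aldh4a1, a mitochondrial dehydrogenase of proline breakdown, was the only one of the 5 above the noise level, with 34.3 and 79.1 against 251 and 227. Ephx1, the microsomal epoxide hydrolase, had 18.1 and 8.64 in WT and -0.909 and -17.7 in Stk40 KO.

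Of 65 conjugation genes other than Sult the table names 2, both dim. One of them, Papss2, makes the sulfate donor PAPS that Sult2a2 uses, and it had 2.73 and 7.73 in WT and -0.545 and -1.36 in Stk40 KO, all close to 0. The other, Ugt8a, had 6.73 and 2.0 against 5.09 and 12.9, so its arrays overlapped. Of 65 transporter genes 8 are named, 7 of them up as deposited (6 up and 1 down with equal 75th percentiles), and all values lay under the noise level. Slco1b2, the organic anion transporter by which hepatocytes take up bile acids and drugs, was read by 3 named probe sets. The brightest had 15.8 and 16.0 in WT and 55.0 and 39.3 in Stk40 KO, the second 8.64 and 11 against 50.8 and 41.9, and the dimmest 2.82 and 1.82 against 9.36 and 5.18. Abcb9 had named probe sets in opposite directions as deposited and was not counted there.

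Among the named genes above the noise level, those with the pattern most like Cyp3a11 over the 4 arrays were Cp, C730007P19Rik, Lcn2, Fabp4 and Cap1. Likeness was measured over 83 other genes as the root mean square difference of log2 intensity at equal 75th percentiles, after raising lower values to the noise level and centring each probe set on its own mean. It was 0.17 for Cp, the copper-carrying ferroxidase of plasma, and 0.17 for C730007P19Rik. It was 0.19 for Lcn2, a siderophore-binding protein, 0.23 for Fabp4, a fatty acid-binding protein, and 0.32 for Cap1, an actin regulator. For C730007P19Rik the nearest gene was Cyp3a11. Next came Mat1a, the methionine adenosyltransferase of adult liver, at 0.19, and Cap1 at 0.22. Uox, the urate oxidase of the liver, and Fabp4 followed, each at 0.26. The WT values of C730007P19Rik, Mat1a and Uox all lay under the noise level and were replaced by it. For C730007P19Rik this left a log2 difference of 1.61 in place of the measured 3.88, so its likeness to Cyp3a11 rests on floored values. Since every candidate was named for a 2-fold change between these arrays, and 4 arrays give few ways to differ, the likeness is a description only.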

How the data were processed

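Pooled fetal liver RNA was hybridized to 4 Affymetrix mouse genome arrays, 2 per genotype. Genotype and replicate number come from the labels. The authors deposited a linear intensity for each probe set on each array. MAS5 is named in the submitters' processing notes, and the sources used here give no version. Of the values, 99.9% are multiples of 1/11 within 0.001, and no scaling between arrays was found. On an array 21.0% to 23.2% of the values are negative. Whether these values are MAS5 signals was not checked. A second deposited table lists 1467 probe sets that the authors found changed 2-fold. It was used only for its gene symbols, and 1418 probe sets have 1 symbol. Its columns of fold changes and genotype means were not used. Genes were named only from single symbols. Left out was 1 probe set with several symbols, at least 1 of them Cyp or Sult, so a gene without a name here may be on it. C730007P19Rik was matched to Sult2a2 as a synonym in RefSeq (GRCm38.p6).

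Members, lists and rules were chosen with earlier results of these data known. The fold rule of the methods removes probe sets negative on all 4 arrays or of opposite sign within a genotype, raises values under 0.1 to 0.1 and takes the ratio of genotype means. It was tested only on simulated positive values of probe sets with a mean above the noise level. That test did not exercise the removal steps or the floor of 0.1. Where WT lies under the noise level on both arrays, a fold is a lower bound against it, and where both genotypes do, none is given. For C730007P19Rik, measured log2 differences are also given beside the floored ones, and they rest on a WT level under the noise level. Named were both members, every Cyp or Sult gene with a single symbol in the table, the genes of the context and marker lists, and the 5 genes most like each member. An item of the transcription factor list and its motif are not reported here. The planned test by limma was meant for probe sets outside the table, which have no name here, so it was not run. Promoter windows were aligned globally with Biopython 1.88 (match 2, mismatch -1, gap opening -4, gap extension -1), and the rest was computed with Python 3.11.15, numpy 2.4.6 and pandas 2.3.3. The number of arrays limits the precision, and SDs describe the spread between 2 pools only.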

Additional observations from a re-analysis of the deposited data

How the results depend on the processing

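As deposited, the log2 ratio of mean intensities was 2.10 for Cyp3a11. For C730007P19Rik the measured means differ by 4.12. With values raised to the noise level the difference was 1.72, a lower bound, since WT lies under that level. Both stayed positive under all alternatives run, which their choice by the ratio on these same arrays largely fixed. For Cyp3a11 the ratio moved by more than the replicate spread with equal 75th percentiles (1.86) and with quantile normalization (1.85). For C730007P19Rik it moved with equal 75th percentiles (3.88), with quantile normalization of values floored at the noise level (1.61) and with that floor alone (1.72), because its WT values were raised to the floor. Without each array in turn the measured difference was 2.02 to 2.18 for Cyp3a11 and 3.98 to 4.25 for C730007P19Rik, which says nothing of stability for either gene, since WT lies at or under the noise level. The count of Cyp genes that were up was 12 as deposited and 6 with equal 75th percentiles. Beside it, the rule calls 3.79% and 2.48% of all judged probe sets up. The count was 2 with the floor at the noise level and 5 at a 3-fold threshold. Without each array in turn it was 8 to 12, with 8 without WT replicate 1. For these other settings the share of all probe sets was not computed. All 14 genes were named for a 2-fold call, so these counts say nothing about Cyp genes as a group. Only 1 Sult gene has a name here, so the Sult count could not rise above 1, and it was 1 in all 7 alternatives. No paired analysis was possible because the values come from no test, and the labels tie no replicate number to a litter or batch shared by both genotypes. The limma test was run under no setting, since the probe sets they were meant for have no name here. Signal over background limits the dim genes, as 10 of the 14 Cyp genes never exceed the noise level.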
